A study of Rattus norvegicus with 8 samples.

Results

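The 10 genes described here, *Hspa5*, *Xbp1*, *Atf4*, *Atf6*, *Ddit3*, *Trib3*, *Atf3*, *Ern1*, *Eif2ak3* and *Asns*, encode sensors, transcription factors and targets of the unfolded protein response (UPR) and the integrated stress response (ISR). They are 10 of the 16678 named genes on the array, and were found by matching the RefSeq accession of each probe to their symbols, which gave 12 of the 45598 probes. RNA came from the *substantia nigra* (SN) of the injected side, as the paper states, of female Sprague Dawley rats. The rats were 3 months old at the start and were studied 20 weeks after a vector was injected into the SN on one side. The AAV-αSyn group received an AAV6 vector with wild-type human α-synuclein at 5.2e10 vector genomes per µL, and the AAV-Null group received an AAV6 vector with no α-synuclein at 5.3e9 vector genomes per µL, both as the methods state them. If those titres stand, α-synuclein and vector titre cannot be told apart. Each group had 4 arrays, all 8 on 1 slide. The promoter that drives the transgene is not given in the sources used here.

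Proteins that fold poorly in the endoplasmic reticulum (ER) are sensed by the membrane proteins IRE1α (*Ern1*), PERK (*Eif2ak3*) and ATF6. IRE1α splices the *Xbp1* mRNA so that it encodes an active transcription factor, ATF6 is cut in the Golgi to release one, and PERK phosphorylates eIF2α, which lowers translation in general but raises that of *Atf4*. Phosphorylation of eIF2α by any of its kinases is the core of the ISR, and ATF4 then drives *Ddit3* (CHOP), *Atf3*, *Trib3* and genes of amino acid supply such as *Asns*. The first steps are changes to proteins and to mRNA splicing, which an array probe for the gene as a whole need not report. The pathway has been studied in dopaminergic (DA) neurons because α-synuclein can disturb traffic between the ER and the Golgi.

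The target genes share short promoter elements that these factors bind, and 4 promoters are shown because they differ in this respect. The ER stress element, the site of ATF6 with NF-Y, was searched as CCAAT and CCACG with any 9 bases between them. The site of XBP1 and ATF6 was searched as TGACGTGG, which holds CCACG on its opposite strand, and the composite site of ATF4 with C/EBP as TGATGNAA, each on both strands. RefSeq windows of the GRCr8 assembly, from 250 bases before to 50 bases after the annotated start, were at hand for 7 of the genes, and none was at hand for *Atf6*, *Atf3* and *Ern1*. The sequences below are the 100 bases before the start, in the direction of transcription, with matches to the 3 motifs in capitals. They lie at chr3:38452916-38453015 on the plus strand (*Hspa5*), chr14:84604523-84604622 on the plus strand (*Xbp1*), chr7:113684581-113684680 on the plus strand (*Atf4*) and chr3:161275534-161275633 on the minus strand (*Trib3*).
Hspa5: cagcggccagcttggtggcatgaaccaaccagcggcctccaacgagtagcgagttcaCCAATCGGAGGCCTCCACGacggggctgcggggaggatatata
Xbp1: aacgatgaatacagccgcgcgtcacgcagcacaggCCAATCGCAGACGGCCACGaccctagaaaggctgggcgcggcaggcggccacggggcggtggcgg
Trib3: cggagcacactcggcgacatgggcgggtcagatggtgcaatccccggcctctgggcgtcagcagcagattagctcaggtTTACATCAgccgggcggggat
Atf4: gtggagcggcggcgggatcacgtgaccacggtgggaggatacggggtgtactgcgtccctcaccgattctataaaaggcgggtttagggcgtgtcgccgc

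The ER stress element was matched in the windows of *Hspa5*, 43 to 25 bases before the start, and of *Xbp1*, 65 to 47 bases before it. It was matched in 22 of all 33469 windows (0.0657%). Among the 16 windows of the list of ER chaperones and folding enzymes described further on it was matched in 6, those of *Calr*, *Canx*, *Creld2*, *Dnajc3*, *Ero1b* and *Hsp90b1*. The composite site was matched in the window of *Trib3*, on the opposite strand 21 to 14 bases before the start, and in 3.98% of all windows. TGACGTGG was matched in none of the 7 windows (0 of 7) and in 0.595% of all windows, among them that of *Hyou1*. None of the 3 motifs was matched in the windows of *Atf4*, *Ddit3*, *Eif2ak3* and *Asns*, which says only that these letters are absent there. CCAAT alone was in 37.5% and CCACG alone in 31.6% of all windows. These matches describe sequence and are not evidence of binding in these samples.

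All 12 probes of the 10 genes passed the filter on dim probes and were compared between the groups. Of these, 11 were well above background, by the scanner software's own call, on all 8 arrays. The probe of *Ern1* was well above background on all 4 AAV-αSyn arrays and on 2 of the 4 AAV-Null arrays. Values are intensities on the log2 scale after quantile normalization between arrays, so a difference of 1 is a doubling, and brightness cannot be compared between probes. Where a gene had several probes, the brightest stood for it.

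No gene of the 10 differed between the groups after the Benjamini–Hochberg adjustment over all 33853 probes tested. The adjusted p-values of the 12 probes from limma's test lay between 0.844 and 0.999, and 5 of all probes tested (0.0148%) had an adjusted p under 0.05. Before the adjustment 1 of the 12 probes, that of *Atf3*, had a p under 0.05, against 5.64% of all probes tested. It was higher in the AAV-αSyn group, as were 3.31% of all probes at this threshold, and 2.32% were lower. At 0 of the 12 probes did the groups of arrays not overlap, against 3.83% of all probes tested. The log2 fold change was above 0 at 9 of the 12 probes and at 7 of the 10 genes, with a median of 0.058 over the probes. Over all probes tested the median was 0.0083 and 52.4% were above 0. The plot of log2 fold changes with their intervals shows how closely each probe bounds the difference.

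**Figure D1:**
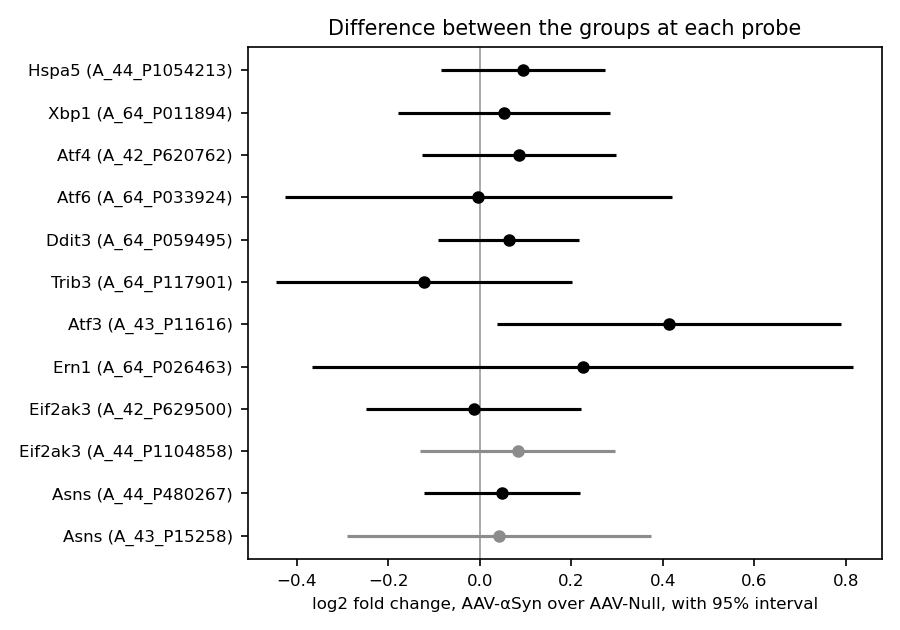
The log2 fold change of AAV-αSyn over AAV-Null (horizontal axis) is plotted for each of the 12 probes (points) with its 95% confidence interval from limma (lines, 4 arrays per group), in black for the brightest probe of a gene and in grey for the others. Only the interval of Atf3 lies wholly above 0, and none is adjusted for the number of probes.

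Markers of the cell types of the midbrain were read from the same comparison. Of 10 markers of DA neurons 9 were tested, *En1* being not analysed here. All 9 were lower in the AAV-αSyn group and 4 had an unadjusted p under 0.05. Their mean log2 intensity was 11.74 to 12.12 on the AAV-Null arrays and 11.32 to 11.61 on the AAV-αSyn arrays. All 5 markers of serotonin neurons were higher, 2 of them with an unadjusted p under 0.05, at a mean of 5.19 to 7.44 and 6.84 to 7.91. These ranges of the serotonin markers overlapped, as did those of the markers of GABA neurons, astrocytes, microglia, oligodendrocytes, endothelial cells, blood and choroid plexus. The 6 markers of blood were all lower, 0 of them with an unadjusted p under 0.05. In RNA from whole tissue, fewer cells of a type and less RNA per cell cannot be told apart, and the part of these markers in the values that follow was not tested. The small number of arrays, 4 per group, limits the precision.

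Among the 3 sensors, the mRNA of none was shown to differ. *Eif2ak3*, the gene of PERK (A_42_P629500, NM_031599), read 9.48, 9.46, 9.25 and 9.65 on AAV-Null arrays 1 to 4 on the log2 scale. On AAV-αSyn arrays 1 to 4 it read 9.49, 9.52, 9.48 and 9.28. The AAV-αSyn arrays lay inside the AAV-Null range, and AAV-αSyn array 4 stands below the other 3 of its group. The fold of AAV-αSyn over AAV-Null was 0.991 (95% interval 0.842 to 1.17), with an unadjusted p of 0.9 and an adjusted p of 0.994 from limma's test. A dimmer probe (A_44_P1104858, XM_006236624) had a log2 fold change of 0.083 (standard error 0.093), so that the 2 probes of *Eif2ak3* differ in sign, each by less than its error.

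*Atf6*, the gene of the sensor that is itself a transcription factor (A_64_P033924, NM_001107196), had log2 intensities of 10.03, 9.87, 9.84 and 9.60 in the AAV-Null group and of 10.34, 9.48, 9.76 and 9.74 in the AAV-αSyn group. The AAV-αSyn arrays held both the highest and the lowest value, and the log2 fold change was −0.0033. The fold was 0.998 (95% interval 0.745 to 1.34; limma's adjusted p = 0.999). The annotation places LOC120096368 and LOC100911728 over the locus of *Atf6*, and the files do not say where in the locus the probe lies.

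*Ern1*, the gene of IRE1α (A_64_P026463, NM_001191926), was the only one of the 12 probes not well above background on every array. Its log2 intensities were 3.79, 3.16, 4.46 and 3.65 in the AAV-Null group, where arrays 2 and 4 were not well above background, and 3.94, 3.77, 3.94 and 4.31 in the AAV-αSyn group. The highest and the lowest value were both AAV-Null arrays. The fold was 1.17 (95% interval 0.775 to 1.76; limma's adjusted p = 0.973), the widest interval of the 12. Weighting each array by its quality moved its log2 fold change from 0.22 to 0.59 (standard error 0.21, adjusted p = 0.299), and normexp background correction moved it to 0.037. With 1 array left out it lay between 0.023 without AAV-Null array 2 and 0.46 without AAV-Null array 3, where its unadjusted p was 0.0453. The pseudogene *Rps10-ps6* overlaps its locus.

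Among the 4 transcription factors beside ATF6, *Atf3* alone had an unadjusted p under 0.05. *Xbp1*, the factor that IRE1α activates (A_64_P011894, NM_001004210), had log2 intensities of 12.16, 12.15, 11.94 and 12.39 in the AAV-Null group and of 12.27, 12.17, 12.22 and 12.20 in the AAV-αSyn group. The 4 AAV-αSyn arrays lay inside the AAV-Null range. The fold was 1.04 (95% interval 0.884 to 1.22; limma's adjusted p = 0.985). The files do not say whether the probe reads the spliced form, the unspliced form or both.

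*Atf4*, the central factor of the ISR (A_42_P620762, NM_024403), was printed as 10 spots per array, and its value is their mean. The log2 intensities were 13.67, 13.77, 13.59 and 13.95 in the AAV-Null group and 13.76, 13.89, 13.80 and 13.88 in the AAV-αSyn group. All 4 AAV-αSyn arrays were above the AAV-Null mean and none was above AAV-Null array 4, the highest of all. The fold was 1.06 (95% interval 0.916 to 1.23; limma's adjusted p = 0.973). Within an array the 10 spots had an SD of 0.016 to 0.032, against an SD between arrays of 0.15 in the AAV-Null group and 0.063 in the AAV-αSyn group.

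*Ddit3*, which encodes CHOP, a factor tied to cell death under lasting ER stress (A_64_P059495, NM_001109986), gave the narrowest interval of the 12. Its log2 intensities were 13.36, 13.32, 13.32 and 13.28 in the AAV-Null group and 13.48, 13.31, 13.39 and 13.35 in the AAV-αSyn group. AAV-αSyn arrays 1 and 3 were above every AAV-Null array and the other two were not. The fold was 1.04 (95% interval 0.939 to 1.16), with an adjusted p of 0.973 from limma's test. The interval bounds a higher signal of this probe, in RNA from whole tissue, at 1.16-fold before any adjustment for the number of probes. *Mars1* and LOC134479709 overlap the locus of *Ddit3* in the annotation.

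*Atf3*, a factor induced by the ISR and also by injury of the axon (A_43_P11616, NM_012912), had the largest log2 fold change of the 10 genes, except with array weights and without AAV-Null array 3, where that of *Ern1* was larger. Its log2 intensities were 6.74, 6.53, 6.47 and 6.92 in the AAV-Null group and 7.35, 6.91, 6.76 and 7.30 in the AAV-αSyn group. All 4 AAV-αSyn arrays were above the AAV-Null mean and 2 of them, arrays 1 and 4, were above every AAV-Null array, so the groups overlapped. The means were 6.67 ± 0.21 and 7.08 ± 0.29 (SD, n = 4 each). The fold was 1.33 (95% interval 1.03 to 1.73), with an unadjusted p of 0.0351 and an adjusted p of 0.844 from limma's test. The exact permutation test over the 70 splits of the 8 arrays, two-sided, gave p = 0.0857, where 0.0286 is the least it can give.

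The p of *Atf3* before adjustment stayed under 0.05 in every processing tried, but rose above it when some arrays were left out. It was 0.0044 to 0.049 under 11 other ways of processing or fitting, with log2 fold changes of 0.24 to 0.41. With 1 array left out at a time the log2 fold change was 0.32 to 0.52 and p was 0.013 to 0.092, under 0.05 in 3 of the 8 cases. It was 0.051, 0.084 and 0.089 without AAV-Null array 1, 2 or 3, and 0.092 when either of AAV-αSyn arrays 1 and 4 was left out. AAV-αSyn arrays 1 and 4 were also the arrays with the highest median intensity before normalization, 310 and 338 against 261 to 294 on the other 6, and the part of this in the result was not tested. The probe was printed as 2 spots, whose SD within an array was 0.031 to 0.15. *Garin4* overlaps the locus of *Atf3* in the annotation.

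Of the targets, *Hspa5* is the most widely used readout of the UPR. It encodes BiP, the main Hsp70 chaperone of the ER lumen, which also holds the sensors inactive. Its probe (A_44_P1054213, NM_013083) was printed as 10 spots, with log2 intensities of 14.09, 14.13, 13.96 and 14.19 in the AAV-Null group and of 14.10, 14.25, 14.17 and 14.24 in the AAV-αSyn group. AAV-αSyn arrays 2 and 4 were above every AAV-Null array, and AAV-αSyn array 1 was near the AAV-Null mean. The fold was 1.07 (95% interval 0.943 to 1.21), with an unadjusted p of 0.259 and an adjusted p of 0.972 from limma's test. The exact permutation test, two-sided, gave p = 0.171.

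*Asns*, asparagine synthetase, a target of ATF4 in amino acid shortage (A_44_P480267, NM_013079), had log2 intensities of 11.97 to 12.12 in the AAV-Null group and of 12.05, 12.02, 12.05 and 12.21 in the AAV-αSyn group. Only AAV-αSyn array 4 was above the AAV-Null range. The fold was 1.03 (95% interval 0.919 to 1.16; limma's adjusted p = 0.975). Its dimmer probe (A_43_P15258, XM_006236089) had a fold of 1.03 (95% interval 0.817 to 1.3).

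*Trib3*, a pseudokinase that CHOP and ATF4 induce and that binds AKT (A_64_P117901, NM_144755), was not shown to differ. Its log2 intensities were 5.01, 5.44, 4.93 and 5.20 in the AAV-Null group and 4.80, 5.11, 4.94 and 5.24 in the AAV-αSyn group. The lowest value was AAV-αSyn array 1, one of the 2 arrays highest for *Atf3*. The fold was 0.919 (95% interval 0.735 to 1.15; limma's adjusted p = 0.973). The log2 fold change of −0.12 became −0.022 without AAV-Null array 2 and −0.041 with normexp, and −0.26 with array weights.

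**Figure D2:**
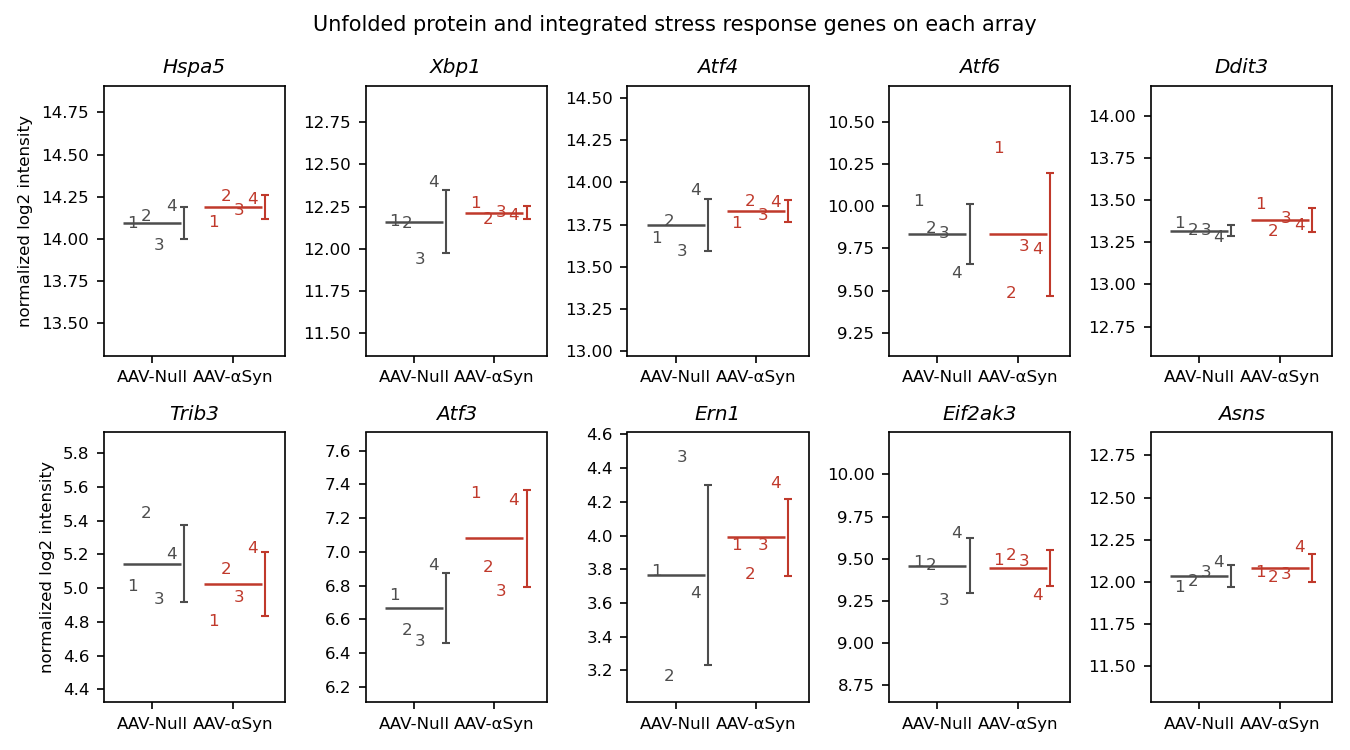
Normalized log2 intensity (vertical axis, 1.6 log2 units in every panel) of the brightest probe of each of the 10 genes, where each digit is the replicate number of 1 array, horizontal lines are group means and error bars are 1 SD (n = 4). The groups overlap in all 10 panels, and in that of Atf3 the AAV-αSyn arrays 1 and 4 lie above the AAV-Null arrays.

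The 8 arrays fill both sides of the slide, with 2 arrays of each group per side, and the differences were also taken within each side. The difference of *Atf3* was 0.33 on side 1 and 0.50 on side 2. It was the only one of the 10 genes with the same sign on both sides, against 47.1% of all probes tested. *Hspa5* differed by −0.03 and 0.22, *Atf4* by −0.08 and 0.25, *Ddit3* by 0.14 and −0.01, *Trib3* by −0.45 and 0.20, *Ern1* by 0.53 and −0.09, and *Atf6* by 0.32 and −0.32. With the side as a block, limma's p of *Atf3* was 0.049 unadjusted and 0.964 adjusted, and no other of the 10 genes had a p under 0.05.

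The genes were then compared with each other over the 8 arrays, since they are regulated together in a stressed cell. Of the 45 pairs 27 had a positive Pearson's r, with a median of 0.13. The pair with the highest r was *Hspa5* and *Atf4* (r = 0.916, exact permutation p = 0.00159 over 40320 pairings; Spearman's rho = 0.929, p = 0.00223, exact). Adjusted over the 45 pairs by Benjamini–Hochberg, the p of r was 0.0714, and no pair was under 0.05. The r was 0.853 without AAV-Null array 3 and AAV-αSyn array 2, the arrays farthest from the median of *Hspa5*, and 0.912 after each group's mean was taken off. Both genes were lowest on AAV-Null array 3. AAV-Null array 4 and AAV-αSyn arrays 2 and 4 were the 3 highest for both. Each of the 2 probes is a mean of 10 spots, and for *Hspa5* the SD of the spots within an array was 0.014 to 0.038, against a range over the arrays of 0.29.

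Of the other pairs 3 had an unadjusted p under 0.05. *Atf6* and *Ddit3* had r = 0.81 (exact permutation p = 0.019, adjusted 0.261; rho = 0.714, p = 0.0576) and 0.455 without AAV-αSyn arrays 1 and 2. Their r was 0.659 without the 2 arrays farthest from the median of *Ddit3* and 0.975 after each group's mean was taken off. *Xbp1* and *Eif2ak3* had r = 0.794 (exact permutation p = 0.0232, adjusted 0.261; rho = 0.738, p = 0.0458), and *Xbp1* and *Atf4* had r = 0.788 (exact permutation p = 0.0193, adjusted 0.261; rho = 0.619, p = 0.115). Without AAV-Null arrays 3 and 4 these r values were 0.0147 and 0.0471, so the relation of *Xbp1* with *Atf4* rests on those 2 arrays. For *Xbp1* and *Eif2ak3* r was 0.87 without the 2 arrays farthest from the median of *Eif2ak3*, AAV-Null array 3 and AAV-αSyn array 4.

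**Figure D3:**
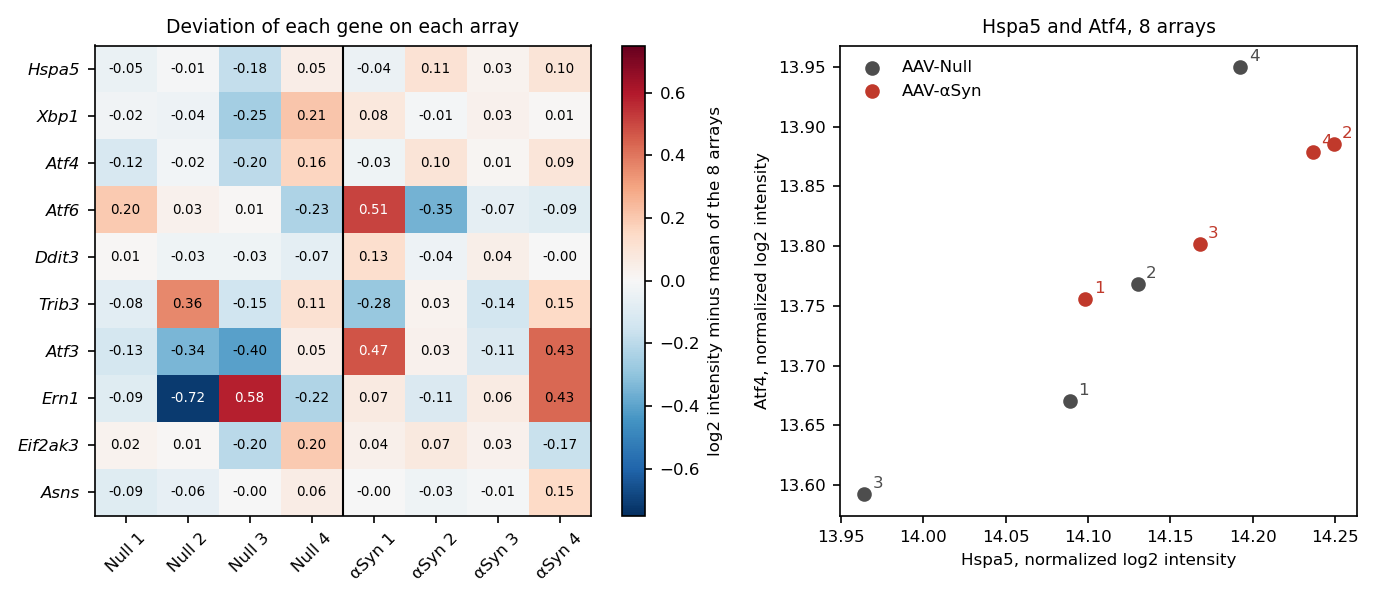
Left, the log2 intensity of each gene on each array minus the gene's mean over the 8 arrays, as colour and number. Right, the normalized log2 intensity of Atf4 (vertical axis) against that of Hspa5 (horizontal axis), 1 point per array labelled with its replicate number, where the points of both groups lie along 1 rising band (r = 0.916).

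The genes most like *Hspa5* over the 8 arrays, among 13641 named genes by their brightest probe, were *Aida* (r = 0.989), *Cox11* (0.985), *Elmod1* (0.975), *Plch1* (0.974) and *Srsf3* (0.974), and *Atf4* stood at place 155. The genes most like *Asns* were *Stim1* (0.966), *Tdh* (0.952), *Pnpla1* (0.945), *Rgs11* (0.922) and *Rnf26* (0.922), and no other of the 10 genes came near them, the nearest being *Atf3* at place 938. These r values are the highest of all those computed over the same 8 arrays and are given as a description.

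The wider pathway was followed in 5 lists of other UPR and ISR genes, of which 103 of 110 had a probe matched to their symbol and 102 were tested. The count past the adjustment was 0 in limma's test. Before it 2 of the 102 genes (1.96%) had a p under 0.05, *Hyou1* and *Ddit4*, both higher in the AAV-αSyn group, against 5.51% of all 13648 named genes. In the lists 60 of 102 genes were above 0, with a median log2 fold change of 0.017, and over all named genes 56% were above 0, with a median of 0.019. The groups of arrays did not overlap for 2 of the 102 genes, *Hyou1* and *Eprs1*, against 573 of the 13648 named genes.

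Among ER chaperones and folding enzymes, the classical targets of ATF6 and XBP1, 13 of 18 were above 0, with a median log2 fold change of 0.033. *Hyou1*, an Hsp70-like chaperone that works with BiP (A_43_P11333), had log2 intensities of 13.03, 13.04, 12.96 and 12.94 in the AAV-Null group and of 13.10, 13.22, 13.11 and 13.19 in the AAV-αSyn group. The lowest AAV-αSyn value, 13.10, lay above the highest AAV-Null value, 13.04, and the log2 fold change was 0.16 with a standard error of 0.066. The exact permutation test, two-sided, gave its least p, 0.0286, and limma's test gave 0.0405 unadjusted and 0.862 adjusted. The p before adjustment was 0.059 under cyclic loess, 0.056 with the side of the slide as a block and 0.044 to 0.11 with 1 array left out. *Hsp90b1*, the ER form of Hsp90, had a log2 fold change of 0.08 (standard error 0.074), the lectin chaperone *Canx* 0.027 (standard error 0.067), and *Dnajc3*, an inhibitor of PERK, −0.11 (standard error 0.11).

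Among genes of ER-associated degradation and translocation 13 of 17 were above 0, with a median log2 fold change of 0.022 and none with an unadjusted p under 0.05 (0 of 17). *Ssr1*, of the translocon-associated complex, had a log2 fold change of 0.14 (standard error 0.087). *Edem2*, which trims mannose from misfolded glycoproteins, had 0.13 (standard error 0.081). *Os9*, a lectin that hands such proteins to degradation, had −0.15 (standard error 0.10), and *Sel1l*, the scaffold of the ubiquitin ligase, had 0.035 (standard error 0.085).

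Among other transducers and regulators of the UPR 7 of 16 were above 0, with a median of −0.0074 and 0 with an unadjusted p under 0.05. *Nfyb* and *Nfya*, subunits of the NF-Y factor that binds CCAAT, had log2 fold changes of 0.15 (standard error 0.09) and −0.08 (standard error 0.10). *Bak1*, a pore former of cell death, had 0.18 (standard error 0.12), and *Creb3l2*, a membrane-bound factor like ATF6, −0.04 (standard error 0.074).

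Among eIF2α kinases, phosphatases and effectors of ATF4 and CHOP 11 of 25 were above 0, with a median of −0.018. *Ddit4*, an inhibitor of mTORC1 that the ISR, hypoxia and glucocorticoids induce (A_42_P605985), had log2 intensities of 12.74, 12.11, 11.71 and 11.94 in the AAV-Null group and of 12.81, 12.70, 12.74 and 12.65 in the AAV-αSyn group. The AAV-αSyn arrays lay within a narrow range, and AAV-Null array 1 lay among them. The log2 fold change was 0.60 (standard error 0.20), with an SD of 0.44 in the AAV-Null group and 0.07 in the AAV-αSyn group. The unadjusted p of limma's test was 0.0174 and the adjusted p 0.763. By exact permutation, two-sided, p was 0.114. The difference was 0.75 on side 1 of the slide and 0.45 on side 2, and with 1 array left out it was 0.46 (without AAV-Null array 3) to 0.81 (without AAV-Null array 1).

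*Fgf21*, a secreted hormone and ATF4 target, had a log2 fold change of 0.45 (standard error 0.24, limma's adjusted p = 0.926). *Gdf15*, another secreted product of the ISR, had 0.30 (standard error 0.22) with only 2 AAV-Null values and all 4 AAV-αSyn values well above background, and the factor *Atf5* 0.085 (standard error 0.091). The lowest log2 fold change in the lists was that of *Nupr1*, a small stress-induced nuclear protein named after its values were seen, at −0.68 (standard error 0.51). Its SD was 0.80 in the AAV-Null group and 0.85 in the AAV-αSyn group.

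Among genes of amino acid synthesis, transport and tRNA charging 16 of 26 were above 0, with a median of 0.041 and 0 with an unadjusted p under 0.05. *Eprs1*, a tRNA synthetase for glutamate and proline, had log2 intensities of 12.15, 12.12, 12.15 and 12.06 in the AAV-Null group and of 12.16, 12.24, 12.26 and 12.24 in the AAV-αSyn group, a narrow gap with no overlap. Its log2 fold change was 0.10 (standard error 0.064, limma's p = 0.139), and the exact permutation test, two-sided, gave p = 0.0286. *Lars1*, the leucine tRNA synthetase, had 0.11 (standard error 0.072), the mitochondrial folate enzyme *Mthfd2* 0.14 (standard error 0.09), and *Phgdh*, the first enzyme of serine synthesis, 0.016 (standard error 0.11).

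**Figure D4:**
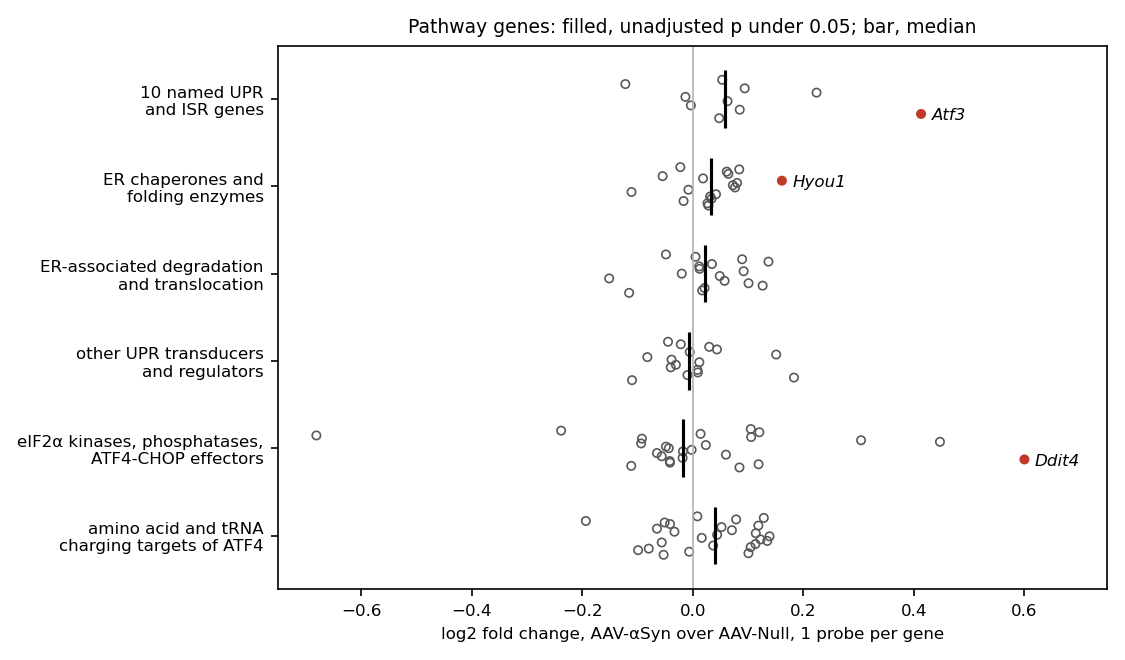
Log2 fold change of AAV-αSyn over AAV-Null (horizontal axis) for the 10 genes and for the 102 genes of the 5 pathway lists, 1 point per gene by its brightest probe, filled where the unadjusted p was under 0.05, with a bar at the median of each list. Atf3, Hyou1 and Ddit4 are the filled points, and the medians of the lists lie between −0.018 and 0.041.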

How the data were processed

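Total RNA of the SN was labelled with Cy3 by the study's authors and hybridised to 1-colour Agilent rat arrays. For every spot the authors deposited the intensity after the scanner software's background correction, with a call of whether it is well above background (Feature Extraction 11.5.1.1 per the labels, 12.0.3.2 per the file headers). They also deposited a matrix of normalized log2 values, used as an alternative. The methods name fewer arrays per group than the files hold, and all 8 were used here. Control spots (4259 per array) and outlier spots were removed, as were 11745 probes that were well above background on 0 arrays (by at least 0.5 of their spots). The log2 intensities were quantile normalized and the spots of each probe were averaged, which left 33853 probes, 17 of them with a missing value on some array. The groups were compared with limma 3.58.1 in R 4.3.3 (lmFit and eBayes, two-sided, no covariate) and p-values were adjusted by Benjamini–Hochberg over all probes tested.

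Probes were named through a table of RefSeq accessions and symbols (GRCr8), which named 21229 of the 45598 probes. The files' own annotation is of another build, so no probe position is given. The methods call the samples biological replicates, and the labels do not name the animals. Arrays correlated at 0.983 to 0.993, so that none was a copy of another. On each array 74.8% to 77.5% of spots were well above background and 0 were saturated.

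The 10 genes, the lists and the tests were chosen with earlier results of these data known. The genes named were the 10, and in each list the 3 with the smallest unadjusted p and the brightest. Listed genes not analysed here included *Slc7a1*, *Tnfrsf10b*, *Manf*, *Derl2*, *Vimp* and *Creb3*. Alternatives were 75th percentile or cyclic loess scaling, normexp background (offset 50, on the median signal), other filters on dim probes, the deposited matrix, a variance trend with robust fitting, array weights, replicate number or side of the slide as a block, and leaving out each array. Differences within each side of the slide were an addition made after seeing the data. The fit was also run on simulated arrays with known changes added to some probes. Their means and spread were taken from the fit to the real arrays.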

Additional observations from a re-analysis of the deposited data

Results flagged for a closer look

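A single array stood apart from the other 3 of its group for 4 genes, by the gap to its nearest neighbour as a share of the group's range (Dixon's test, 95% level). At this threshold about 4.1 of the 82 groups examined are marked by chance, and 4 were. For *Asns* (A_44_P480267) AAV-αSyn array 4 was at 12.21 and the others at 12.02 to 12.05 (share 0.839). For *Eif2ak3* (A_42_P629500) the same array was at 9.28 and the others at 9.48 to 9.52 (share 0.841). For *Fgf21* (A_42_P618217) AAV-αSyn array 3 was at 5.27 and the others at 5.88 to 5.99 (share 0.855). For *Edem2* (A_43_P17384) AAV-Null array 4 was at 8.57 and the others at 8.66 to 8.68 (share 0.877).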

How the results depend on the processing

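Under every alternative run, 0 of the 12 probes of the 10 genes passed the adjustment (lowest adjusted p 0.299, *Ern1* with array weights). Of 191 values of their log2 fold changes, 12 changed sign. *Atf6* was 0.019 with 75th percentile scaling and 0.040 with normexp, and lay between −0.17 and 0.11 with 1 array left out (0.062 without AAV-Null 1, 0.0075 without AAV-Null 2, 0.11 without AAV-αSyn 2, 0.02 without AAV-αSyn 3 and 0.027 without AAV-αSyn 4). *Eif2ak3* was 0.00028 with 75th percentile scaling, 0.083 at its other probe, and −0.082 to 0.050 with 1 array left out (0.050 without AAV-Null 4 and 0.040 without AAV-αSyn 4). *Xbp1* was −0.022 without AAV-Null array 3 and up to 0.13 without another. With 1 array left out, *Hspa5* lay between 0.051 and 0.13, *Atf4* between 0.034 and 0.15, *Ddit3* between 0.032 (without AAV-αSyn 1) and 0.086, *Asns* between 0.0071 and 0.075 and *Trib3* between −0.19 and −0.022, with no change of sign.

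Probes past the adjustment over the whole array numbered 5, and 9 with a variance trend, 10 with array weights, 3 with the side of the slide as a block, 0 with a replicate block, and 3 to 5 with 1 array left out. Those with an unadjusted p under 0.05 numbered 4503 with array weights in place of 1908, and 1446 to 2803 with 1 array left out. Of the 12 probes, 2 had an unadjusted p under 0.05 with array weights (*Atf3* and *Ern1*) and 0 to 1 with 1 array left out. Without AAV-Null 3 that probe was *Ern1* and not *Atf3*, and the count was 0 without AAV-Null 1, AAV-Null 2, AAV-αSyn 1 or AAV-αSyn 4.

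Of the 102 list genes, 2 had an unadjusted p under 0.05, and 11 with array weights, 1 with cyclic loess, 1 with the side of the slide as a block, 1 with the replicate block and 1 to 6 with 1 array left out (6 without AAV-Null 3, 5 without AAV-Null 4). Over all 33853 probes tested 1908 had such a p, and 4503 with array weights, 2746 without AAV-Null 3 and 2803 without AAV-Null 4. With cyclic loess 1885 of all probes had it, with the side of the slide as a block 1747 and with the replicate block 2218. The unadjusted p of *Hyou1* was 0.0755 with the replicate block. For chaperones the count of 1 became 0 with cyclic loess, the side of the slide or the replicate block and 0 to 2 with 1 array left out. With array weights the counts were 1 for degradation and translocation, 2 for other transducers, 5 for kinases and effectors and 2 for amino acid genes. With 1 array left out they were 0 for degradation and translocation, 0 to 1 for other transducers, 1 to 3 for kinases and effectors and 0 to 2 for amino acid genes, which also had 1 with no filter on dim probes. Weights and left-out arrays change which arrays carry the estimate, and the cause of these shifts was not tested.

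Arrays with the same replicate number deviated together only in part (correlations of deviations 0.14, 0.27, 0.041 and −0.0022), so the numbers were not taken to pair the samples. The number is also the row of the slide, so this block is a block of the row too, and the replicate block changed no other call. Scaling by the 75th percentile put 9 of the 10 genes above 0, in place of 7.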
